A study of Mus musculus with 15 samples.

Results

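The genes described here are those of the mitochondrial ribosome. They were chosen by symbol alone, as the protein-coding genes of GENCODE vM1 (mouse build mm9) named Mrpl or Mrps followed by digits. The rule found 76 of 22219 protein-coding symbols, 47 of the large subunit (Mrpl) and 29 of the small subunit (Mrps), on 17 chromosomes. The pseudogene-like symbol Mrps36-ps1 and the older symbol Mrp63 are not of this form and were left out. The symbol also brings in Mrps36, whose product is now known as a component of the oxoglutarate dehydrogenase complex.

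Chromatin immunoprecipitation with sequencing (ChIP-seq) had been done in 3T9-MycER cells, an embryonic fibroblast line (source embryos at E13.5) in which c-myc is flox/flox and a MycER construct was introduced by infection. MycER is Myc fused to a hormone-binding domain and is activated by 4-hydroxytamoxifen (OHT), given at 400 nM. Myc (antibody N262) and RNA polymerase II (RNAPII, antibody N20) were profiled before OHT (0 min) and at 10, 20 and 30 min, 2 h and 4 h. Miz1 (antibody 10E2, gene Zbtb17), a zinc finger protein that can partner with Myc on DNA, was profiled in these fibroblasts without OHT and in spleen B cells taken with B220 beads from wild-type C57BL/6 mice of 6 to 8 weeks. All fibroblast groups share the floxed c-myc alleles and the MycER construct, so the lists do not separate endogenous Myc from MycER, and no fibroblast group lacks MycER or received OHT without it.

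Each group held 1 library. No difference between times or cell types has a replicate check, no p-value is given, and all values below describe these libraries. The Myc libraries held 28132063 to 33431447 tags. Of the RNAPII libraries, that of 20 min was the deepest with 36396286 tags, and the others ranged from 15276996 (0 min) to 19999678 (10 min), with 16274905 at 30 min. The Miz1 libraries held 10164509 tags in fibroblasts and 24237295 in B cells. In the fibroblasts before OHT, RNAPII was at the promoters of 10 of 12 fibroblast marker genes (not Thy1 or Postn), 0 of 10 B cell, 1 of 10 T or myeloid (Lck) and 1 of 7 neuron marker genes (Tubb3). RNAPII was not profiled in the B cells, so that label was not checked against markers.

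Mitochondria keep a small genome that encodes core subunits of the respiratory chain, and a ribosome of their own translates it. All proteins of that ribosome are encoded in the nucleus, made in the cytosol and imported. The small subunit reads the messenger RNA, and the large subunit joins the amino acids and passes the new chain out through a tunnel. Many of these proteins descend from bacterial ribosomal proteins and keep their numbers, while others occur only in mitochondria. Myc is known as an activator of genes for ribosome production and for mitochondrial mass. It binds DNA with Max, best at the E-box CACGTG. Nuclear genes for mitochondrial proteins are also known as targets of the ETS factor GABP, which binds around CCGGAAG, of NRF1 and of YY1.

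The first set of sequences shows where an E-box lay at the Myc summit. Mrpl23 and Mrpl54 had the highest Myc fold enrichments at 4 h among the genes with an E-box there, Mrpl24 recurs below, and in Mrps18c an E-box lies beside an ETS core. Capitals mark CACGTG. All are written 5′ to 3′ on the gene's strand, with mm9 coordinates.
Mrpl23 (chr7:149719317-149719422): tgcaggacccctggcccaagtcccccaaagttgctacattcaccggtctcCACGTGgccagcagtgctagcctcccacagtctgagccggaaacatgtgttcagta
Mrpl54 (chr10:80729643-80729672): cacggaagtctgCACGTGcgagcggccggc
Mrpl24 (chr3:87723591-87723620): acgtagagaacgCACGTGgaaagaaagttg
Mrps18c (chr5:101227603-101227632): gcagccccgggtCACGTGacttccggcccg

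The E-box of Mrpl23 lies in an intron, 452 bp downstream of the transcription start site (TSS). Those of Mrpl54 and Mrpl24 lie in annotated UTR, 22 and 120 bp downstream of the TSS. That of Mrps18c lies outside the gene, 29 bp upstream of the TSS.

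The second set shows the ETS core, the motif whose share of these promoters exceeded that of all genes by the most percentage points among the motifs searched. It is given for genes that return in the results on Myc, RNAPII or Miz1. Capitals mark CCGGAAG or its reverse complement CTTCCGG, again on the gene's strand.
Mrpl22 (chr11:57985102-57985131): cttttccggtcCCGGAAGccggcctcggac
Mrpl20 (chr4:155177657-155177686): ctagaggcgccCCGGAAGacagtgctcgca
Mrps26 (chr2:130389468-130389497): ctccgcggccaCTTCCGGgccgggcgcagg
Mrpl18 (chr17:13109179-13109208): aactgaaaacgCCGGAAGtagggggctgcg
Mrpl43 (chr19:45080926-45080955): caaccccggaaCCGGAAGtcaccggttagt
Mrps23 (chr11:88017894-88017923): tgccgcttccgCTTCCGGtaacagcccgag

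The third set shows the DNA under the 2 Miz1 summits that occurred in both cell types. Capitals mark the 6 bases around the fibroblast summit, on the plus strand, which is the strand of both genes. The summit lay 26 bp inside the Mrps15 gene and 44 bp upstream of the TSS of Mrps23.
Mrps15 (chr4:125724180-125724209): agccctcggcagCTCTTGtcgcgctctcac
Mrps23 (chr11:88017803-88017888): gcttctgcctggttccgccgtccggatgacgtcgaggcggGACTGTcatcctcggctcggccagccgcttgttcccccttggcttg

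Which of these promoters carried Myc before and after OHT was read from the peak lists. A promoter was the 1 kb either side of any TSS of a gene, and a peak counted if it overlapped that window. Before OHT, 74 of 76 mitochondrial ribosomal protein genes had a Myc promoter peak, against 44.7% of all protein-coding genes. At each later time 76 of 76 had one, against 46.8% of all genes at 10 min, 47.9% at 20 min, 46.6% at 30 min, 48.9% at 2 h and 46.7% at 4 h. A peak at all 6 times was present at 74 of 76, against 43.3% of all genes (9623 genes).

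The genes without a Myc peak at 0 min were Mrpl55 and Mrps22, both for proteins found only in mitochondrial ribosomes. The peak of Mrpl55 had a fold enrichment over control of 8.29 at 10 min (79 tags), 8.75 at 20 min, 7.76 at 30 min, 9.35 at 2 h and 10.9 at 4 h (104 tags). That of Mrps22 had 9.55 at 10 min (93 tags), 7.03 at 20 min, 7.00 at 30 min, 9.49 at 2 h and 8.41 at 4 h. At each later time both stood among the 5 lowest folds of the set. The lowest fold called at 0 min in the set was 5.26, the median 16.3 and the highest 54.1; at 4 h these were 6.85, 26.1 and 98.7.

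Peaks were picked by overlap with a window around the TSS, so closeness to a gene start was partly set by that rule. At 4 h the Myc summit was within 1000 bp of the gene's own TSS in 76 of 76 genes and within 250 bp in 61. In 16 of the 76 the TSS nearest to the summit belonged to another gene, so the peak cannot be given to the mitochondrial ribosomal protein gene alone. These distances were not counted for all genes with a Myc peak, so they are not shown to be particular to this set.

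Folds depend on the library, so genes were ranked within each list among the 9623 genes with Myc at all 6 times, where percentile 100 is the highest fold. The 74 ranked mitochondrial ribosomal protein genes had a median percentile of 64.0 before OHT, 67.9 at 30 min and 67.5 at 4 h, where all ranked genes have 50 by construction. Above the midpoint of the ranking stood 48 of 74 at 0 min and 55 of 74 at 4 h, and in the top 10% stood 10 and 11. They spread from percentile 1.60 to 98.8 at 0 min and from 2.3 to 99.7 at 4 h, so the set held both very strong and very weak Myc peaks. The 46 ranked large subunit genes had medians of 70.6, 75.1 and 70.0 at the same times. The 28 ranked small subunit genes had 50.5, 63.6 and 63.4.

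**Figure D1:**
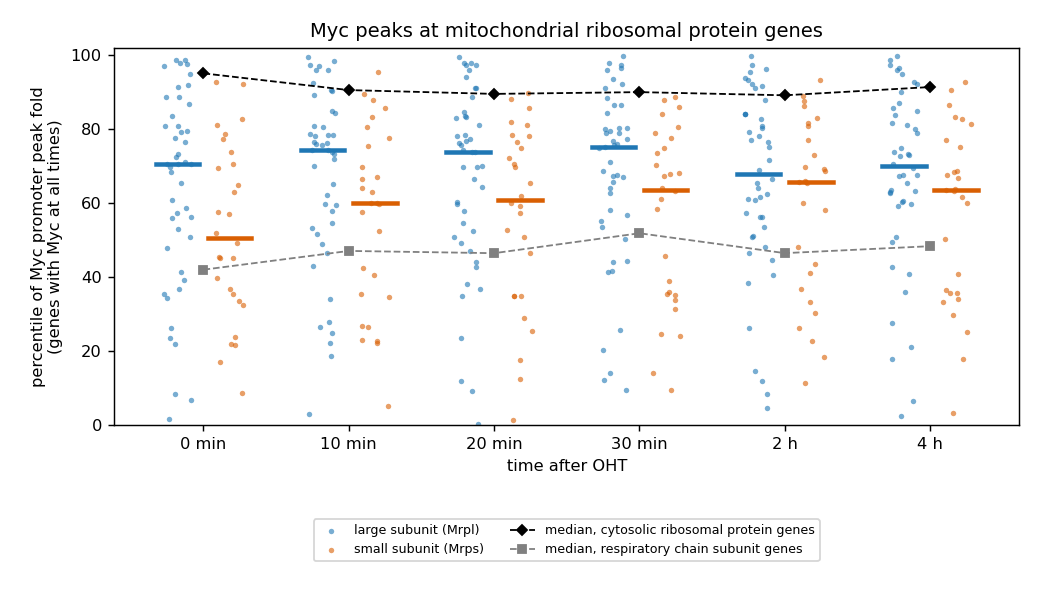
Each point is 1 gene, its height the percentile of its Myc promoter peak fold among 9623 genes with Myc at all times (y axis), at each time after OHT (x axis); short lines are medians of large (blue) and small (orange) subunit genes, and dashed lines are medians of 2 other gene groups. The mitochondrial ribosomal protein genes span nearly the whole scale, with medians between those of cytosolic ribosomal protein genes and respiratory chain subunit genes at all 6 times.

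At 4 h the 8 highest Myc folds were at Mrpl23, Mrpl43, Mrpl18, Mrpl52, Mrpl22, Mrpl54, Mrpl16 and Mrps28. Mrpl23, homologous to a bacterial protein at the tunnel exit, had 54.1 at 0 min, 99.8 at 10 min, 96.3 at 20 min, 101 at 30 min, 107 at 2 h and 98.7 at 4 h. Its percentile was 98.8 at 0 min and 99.7 at 4 h, so it stood near the top before OHT as after. Mrpl43 had 52.8 at 0 min and 79.8 at 4 h, and Mrpl18 had 43.6 and 69.6. Both share their peak with a divergent neighbour: at 4 h the summit was 32 bp from the TSS of Peo1, which encodes the mitochondrial DNA helicase Twinkle, and 2 bp from that of Tcp1, a subunit of the cytosolic chaperonin. Mrpl52 had 46.6 at 0 min and 66.2 at 4 h, and Mrpl54 had 45.5 and 58.8. Mrps28, the highest of the small subunit genes, had 32.9 and 52.4.

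Mrpl22, homologous to a bacterial protein of the tunnel wall, differed most in rank among these 8. Its fold was 15.5 at 0 min (133 tags), 63.9 at 10 min (414 tags), 69.5 at 20 min, 60.3 at 30 min, 66.3 at 2 h and 63.7 at 4 h (434 tags). Its percentile was 60.9 at 0 min and between 93.3 and 96.1 at the 5 later times. The value at 0 min was thus the only one of the 6 outside the top 10% of the ranking. Mrpl16 had a fold of 21.0 at 0 min and 52.7 at 4 h, and percentiles of 77.7 and 92.8. Over the whole set, 3 weaker genes, picked out after their values were seen, differed in rank by more than Mrpl22. The percentiles of Mrps23 were 23.7 before OHT and 68.6 at 4 h, those of Mrpl53 were 23.4 and 63.3, and those of Mrpl36 were 39.2 and 74.8. The other way, the largest differences, also picked out after the values were seen, were at Mrps14, with 57.6 and 33.1, at Mrpl45, with 86.7 and 63.6, and at Mrps12, with 45.4 and 24.9. The fold of Mrpl45 was 26.7 before OHT and 24.5 at 4 h.

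The 4 lowest folds at 4 h were at Mrpl4 (6.85), Mrps21 (7.24), Mrps22 (8.41) and Mrpl14 (8.50), of which Mrpl4, Mrps21 and Mrpl14 have bacterial homologues. Mrpl4 had 6.51 before OHT, 7.45 at 10 min, 5.38 at 20 min, 8.96 at 30 min, then 10.3 at 2 h, and its percentile stayed between 0.2 and 9.5. Among the 5 further genes picked by name, Mrpl12, part of the flexible stalk that also contacts mitochondrial RNA polymerase, had 37.3 at 0 min and 51.5 at 4 h. Mrps18b, 1 of 3 related S18 proteins, had 33.7 and 48.0, Mrpl3 near the peptide-joining centre had 17.99 and 29.5, and Mrps7 had 19.3 and 25.9. Mrps12, homologous to a protein of the bacterial decoding centre, had 12.4 and 13.0. Myc strength thus differed widely between genes whose products sit side by side in 1 ribosome.

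Other gene groups were ranked in the same way to place these values. The 76 cytosolic ribosomal protein genes, for the ribosome outside mitochondria, had Myc at all 6 times in 76 of 76 and median percentiles of 95.1 at 0 min and 91.4 at 4 h. The group of 82 genes for nuclear-encoded respiratory chain subunits was chosen by symbol and also took in ATP synthase (Atp5) genes. Of these 82 genes, 72 had Myc at all 6 times, with medians of 41.9 and 48.3. The genes that lacked it included Cox6a2, Cox6b2, Cox7a1, Cox7b2, Cox8b and Cox8c, known as tissue-specific forms of cytochrome oxidase subunits. The others, Ndufa1, Ndufa9, Ndufb3 and Ndufs5, are not of that kind and lacked a peak at some of the times. The mitochondrial ribosomal protein genes lay between the other groups.

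Genes that act with the mitochondrial ribosome carried Myc at 0 min as well. It was at 17 of 17 genes for assembly of that ribosome, with a median percentile of 62.8 before OHT and 72.6 at 4 h. It was at 13 of 13 genes for mitochondrial translation factors, with 65.8 and 51.0, and at 7 of 7 mitochondrial ribosomal proteins under other symbols (among them Dap3 and Gadd45gip1), with 49.8 and 67.5. It was at 7 of 8 genes for copying and transcribing mitochondrial DNA (not Mterf), with 83.7 at both times for 7 ranked genes. Noa1 and Slirp did not match a symbol of the annotation.

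The E-box was searched, on both strands, in the 200 bp around each Myc summit. Before OHT CACGTG was there for 8 of 74 mitochondrial ribosomal protein genes, against 18.8% of all genes with such a peak. At 4 h it was there for 8 of 76, against 17.5%. These 8 at 4 h were Mrpl23, Mrpl54, Mrpl41, Mrpl40, Mrpl37, Mrps33, Mrpl24 and Mrps18c. The cytosolic ribosomal protein genes had it in 28.9% and the respiratory chain genes in 9.46% at 4 h. In all ranked genes the median Myc percentile was 76.3 with an E-box and 44.7 without at 0 min, and 75.1 and 44.9 at 4 h. In the mitochondrial ribosomal protein genes it was 75.7 for the 8 with one and 62.0 for the 66 without at 0 min. At 4 h it was 65.3 for the 8 with one and 67.5 for the 66 ranked without, so the order of the medians differed between the times. The strongest peak of the set, at Mrpl23, lay over 2 E-boxes, while those of Mrpl43, Mrpl18, Mrpl52 and Mrpl22 had none of these letters in the window.

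Other motifs were searched in the promoter sequence from 250 bp before to 50 bp after the start, on both strands, in 76 mitochondrial ribosomal protein genes and in all genes. The ETS core CCGGAAG was in 27 of 76 (35.5%), against 10.8% of all genes and 20.2% of the 9623 genes that had Myc throughout. It was in 28.9% of cytosolic ribosomal protein promoters and 19.5% of respiratory chain promoters. The YY1 motif AAGATGGCG was in 8 of 76 (10.5%), against 1.87% of all genes and 3.62% of genes with Myc at all times. These 8 were Mrpl36, Mrpl37, Mrpl42, Mrpl46, Mrps11, Mrps18a, Mrps24 and Mrps27. The NRF1 half-site GCGCATGCG was in 5 of 76 (6.58%), against 2.11% of all genes and 4.05% of genes with Myc at all times. It was in 8.54% of respiratory chain promoters, so it was not particular to this set.

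The remaining motifs did not stand out in the same way. The E-box was in 5 of 76 of these promoter windows, against 7.71% of all genes, and the GC box GGGCGGG in 31 of 76, against 32.4%. The CCAAT box was in 30 of 76, against 37.9%, and TATAAA in 7 of 76, against 13.4%. The median GC content of the promoters was 57.7%, against 55.3% in all genes and 61.0% in genes with Myc at all times. A match is a description of the letters and does not show that the factor was bound.

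**Figure D2:**
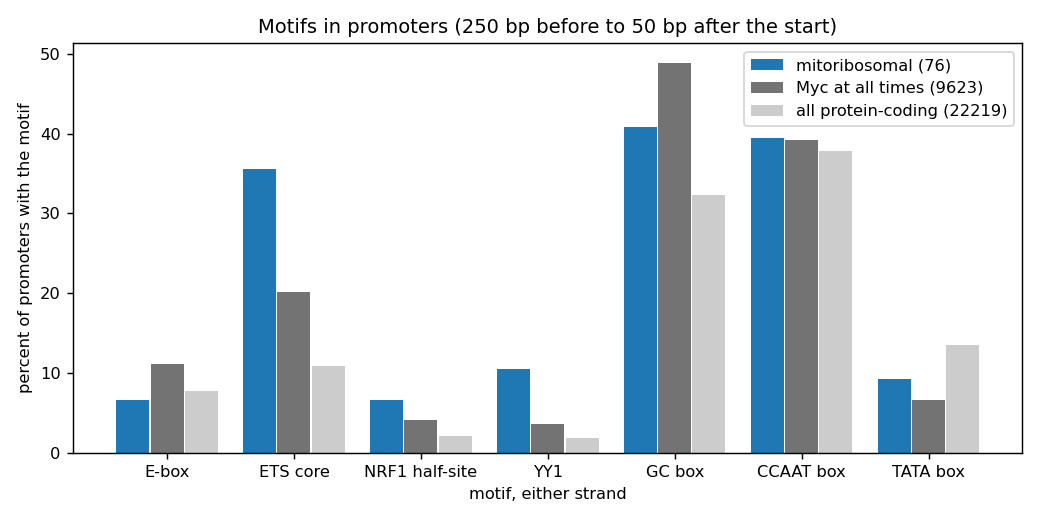
Bars give the percent of promoters (y axis, from 0) that hold each motif on either strand (x axis) in the 76 mitochondrial ribosomal protein genes, in the 9623 genes with Myc at all times and in all 22219 protein-coding genes. The ETS core was in 35.5% of mitochondrial ribosomal protein promoters and in 10.8% of all promoters.

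Many of these genes start head to head with a neighbour. A protein-coding TSS on the other strand lay within 1000 bp upstream in 24 of 76 mitochondrial ribosomal protein genes, against 9.58% of all genes. The share was 17.1% in cytosolic ribosomal protein genes and 28.0% in respiratory chain genes. It was 35.3% in the 17 genes for assembly of the mitochondrial ribosome, so a high share was not particular to this set. Among the smaller groups it was 28.6% in mitochondrial ribosomal proteins under other symbols, 25% in genes for copying and transcribing mitochondrial DNA and 7.69% in translation factor genes. Mrpl46 and Mrps11, 1 gene of each subunit, were each other's partner with 53 bp between their starts on chromosome 7, and had the same RNAPII peak, with a fold of 29.5 at 0 min. Both TSSs thus fell under 1 call, and neither factor can be given to 1 of the genes alone.

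Several partners also have mitochondrial roles. Mrps12 starts 171 bp from Sars2, the mitochondrial seryl-tRNA synthetase gene, Mrpl43 starts 116 bp from Peo1, and Mrps27 starts 108 bp from Ptcd2. Others serve other parts of the cell. Mrpl32 starts 217 bp from Psma2, a proteasome subunit gene, and Mrpl49 starts 135 bp from Fau, which encodes a fusion that yields a cytosolic ribosomal protein. Mrpl40 starts 270 bp from the histone chaperone gene Hira, and Mrps18c starts 27 bp from the helicase gene Helq. The median Myc percentile at 4 h was 67.5 in the 24 genes with a partner and 65.6 in the 50 ranked genes without one.

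RNAPII stood at the promoters of nearly all of these genes throughout. In the narrow lists 76 of 76 had a promoter peak at 0 min (47.5% of all genes), 20 min (48.4%), 30 min (46.4%), 2 h (46.3%) and 4 h (46.8%), and 75 of 76 at 10 min (47.3%). At all 6 times 75 of 76 had one, against 43.5% of all genes. In the broad lists, called from the same libraries with another version of the caller, 75 of 76 had one at 0 min (44.4% of all genes; not Mrpl55) and 76 of 76 at each later time (44.9% at 10 min, 46.8% at 20 min, 43.3% at 30 min, 43.8% at 2 h and 43.8% at 4 h). Broad calls at all 6 times were present at 75 of 76, against 41.3% of all genes.

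The gene without a narrow peak at 10 min was Mrpl24. In the narrow list at 0 min it lay inside a peak at chr3:87708879-87736942, 28064 bp long with a fold of 28.8, which reaches over neighbouring genes, and at 20 min inside a peak of 46227 bp. The 10 min narrow list held no peak in this stretch, whereas the broad list of the same library had several, such as chr3:87720675-87724568 with a fold of 28.3. The missing call at 10 min was therefore found in 1 of the 2 lists made from that library. In all genes, 39 had a narrow peak at the other 5 times and not at 10 min, and 23 of these had a broad peak at 10 min. The same counts were 87 and 84 for 20 min, so narrow calls were missing in this way at 20 min too. They were 75 and 6 for 0 min, 86 and 18 for 30 min, 118 and 30 for 2 h, and 75 and 5 for 4 h.

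By rank, RNAPII promoter peaks of the set had medians not far from the midpoint. Among the 9671 genes with a narrow RNAPII promoter peak at all 6 times, the 75 ranked genes had a median percentile of 46.9 at 0 min, 52.1 at 30 min and 50.5 at 4 h. Cytosolic ribosomal protein genes had 92.4, 94.2 and 92.9, and respiratory chain genes 50.5, 54.0 and 58.1. At 2 h the median of the set was 57.3, and that of respiratory chain genes 56.4. In the broad lists, among 9177 ranked genes, the set had 46.2 at 0 min, 58.1 at 30 min, 59.3 at 2 h and 55.3 at 4 h. In the narrow lists Mrps18b had the highest RNAPII fold of the set at each time, with 96.9 at 0 min, 74.5 at 10 min, 71.4 at 20 min, 88.3 at 30 min, 64.6 at 2 h and 83.2 at 4 h. It shares its promoter with Ppp1r10, 177 bp away. Mrpl55 had the lowest at 0 min, with a fold of 10.9.

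Among the genes named here, strong Myc did not always go with strong RNAPII. The relation over all ranked genes was not computed. Mrpl23, with the highest Myc fold, had an RNAPII percentile of 44.6 at 0 min and 46.0 at 4 h. Mrpl22 had 37.4 and 46.4, although its Myc percentile was 60.9 and 96.1. Mrps12, with a low Myc percentile at 4 h, had RNAPII percentiles of 23.3 and 71.0. Mrpl43 had 67.1 and 92.5, and Mrpl4, with the lowest Myc fold, had 27.3 and 67.0. Mrpl12 was high in both, with Myc percentiles of 94.9 and 92.3 and RNAPII percentiles of 91.0 and 81.9.

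RNAPII along the gene body was described as the percent of the gene, without its first 1000 bp, that lay under RNAPII peaks. This cover was taken for genes of at least 3000 bp with a narrow promoter peak at 0 min, which were 64 of the 76 (12 were shorter). It counts called length and not the amount of RNAPII, it can grow with the depth of the library, and peaks of neighbouring genes add to it. In the narrow lists the mean cover of the 64 genes was 27.8% at 0 min, 40.6% at 10 min, 48.3% at 20 min, 37.9% at 30 min, 42.3% at 2 h and 36.9% at 4 h. The medians were 6.59%, 16.7%, 41.1%, 18.6%, 23.9% and 17.1%. In all 9763 such genes the means were 21.6%, 27.9%, 33.0%, 24.5%, 25.7% and 22.7%. The highest value in both groups fell at 20 min, in the library with the most tags. The 0 min library, the base of each difference below, had the fewest tags (15276996), followed by 4 h (16268203) and 30 min (16274905). Those of 2 h and 10 min held 19859793 and 19999678. The part of depth in these differences was not tested.

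Counted per gene, 15 of 64 had a cover more than 20 points above that at 0 min at 10 min, against 12.9% of all genes. At 20 min these were 21 of 64 (22% of all genes), at 30 min 11 of 64 (9.22%), at 2 h 17 of 64 (10.5%) and at 4 h 10 of 64 (7.32%). More than 20 points below 0 min stood 1 gene at 10 min (1.77% of all genes), 1 at 20 min (2.13%), 2 at 30 min (4.04%), 1 at 2 h (3.49%) and 3 at 4 h (4.86%). The 1 gene at 10 min was Mrpl24, at 100% in the other 5 narrow lists and at 0% at 10 min, where its narrow call was missing as described above. The difference from 0 min exceeded 20 points upward at all 5 later times in 4 of 64, against 395 of all 9763 genes (4.05%). Such a difference was thus not particular to this set. Within 20 points throughout stayed 38 of 64. The share of all genes that did so was not counted, so this number is not set against a background.

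These genes are short, with a median length of 7734 bp against 15525 bp for all genes, and cover depends on length. The 39 genes under 10 kb had a mean cover of 37.0% at 0 min and 48.9% at 30 min, where all 2070 genes under 10 kb had 46.0% and 47.9%. Of the 39, 8 were more than 20 points higher at 30 min, against 12% of all genes of that length. The 25 genes of 10 kb or more had 13.6% and 20.8%, where all 7693 such genes had 15.0% and 18.2%, and 3 of 25 were more than 20 points higher, against 8.48%. In the narrow lists the mean of the short mitochondrial ribosomal protein genes thus stood below that of all short genes before OHT and level with it at 30 min. Their medians were 13.4% and 33.5%, against 35.2% and 38.3% for all short genes, so by median they stood below at both times. In the broad lists their means were 4.39% and 4.98%, against 14.9% and 16.5%.

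The broad lists gave another picture. The mean cover of the 64 genes there was 3.30% at 0 min, 5.68% at 10 min, 12.4% at 20 min, 3.81% at 30 min, 7.71% at 2 h and 5.85% at 4 h. In all 9763 such genes the broad means were 5.37%, 7.47%, 11.6%, 6.44%, 7.01% and 6.00%. The 64 genes thus stood below all genes at 0, 10 and 30 min and 4 h, and above them at 20 min and 2 h. In the narrow lists they stood above all genes at each time. In the broad lists at 30 min, 0 of 64 were more than 20 points above 0 min, against 2.98% of all genes. At the other times these were 4 at 10 min (3.78% of all genes), 12 at 20 min (10.6%), 6 at 2 h (3.57%) and 3 at 4 h (2.3%). From 0 to 30 min the mean thus differed far less in the broad calls than in the narrow calls of the same 2 libraries, while 20 min was highest in both.

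**Figure D3:**
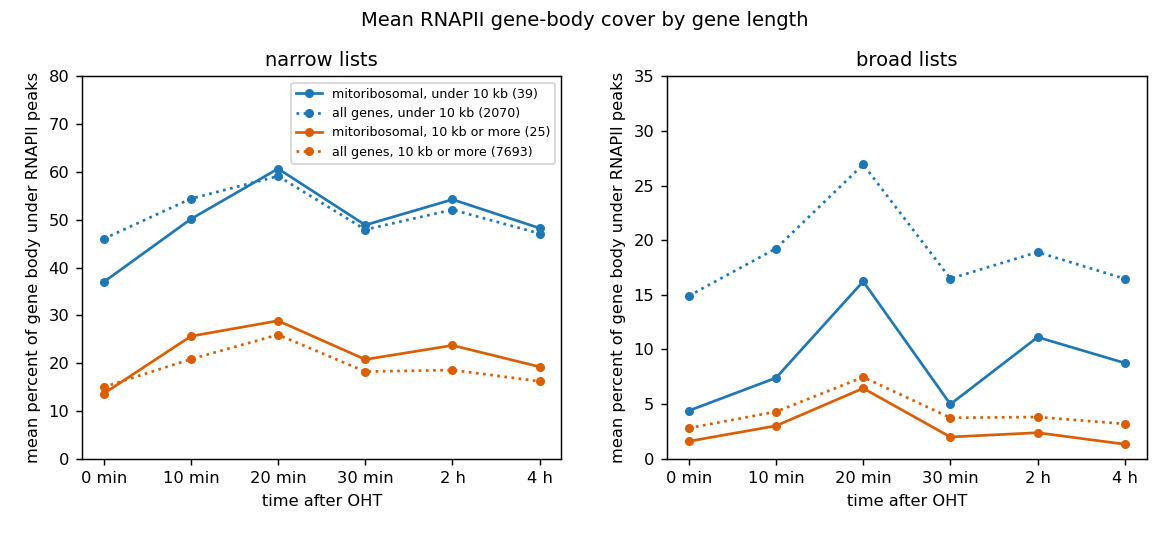
Lines join the mean percent of gene body under RNAPII peaks (y axis) at each time after OHT (x axis), for mitochondrial ribosomal protein genes (solid) and all genes (dotted), split at 10 kb of gene length; the y axes differ between narrow (left) and broad (right) lists. In the narrow lists the short mitochondrial ribosomal protein genes start at 37.0% and reach 48.9% at 30 min, while in the broad lists 0 and 30 min lie close together.

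The 10 genes with the largest difference from 0 to 30 min in the narrow lists were Mrpl22, Mrpl20, Mrps26, Mrpl27, Mrpl55, Mrps6, Mrps30, Mrps17, Mrpl13 and Mrps15. Mrpl22 (chr11:57985163-57993067) had a cover of 0% at 0 min, 99.3% at 10 min, 100% at 20 min, 100% at 30 min, 86.2% at 2 h and 100% at 4 h. Its promoter peak ran over 1865 bp at 0 min (84 tags) and over 13629 bp at 30 min (630 tags), past the end of the gene. This is also the gene whose Myc percentile differed most among the strongest. In the broad lists its cover was 0% at 0, 10 and 30 min, 32.8% at 20 min, 13.0% at 2 h and 27.3% at 4 h.

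Mrpl20 (chr4:155177645-155183885), homologous to a bacterial protein of large subunit assembly, had 4.9% at 0 min, 97.7% at 10 min, 100% at 20 min, 86.4% at 30 min, 94.9% at 2 h and 80.2% at 4 h. At 20 min its promoter lay in a peak of 32662 bp whose summit was 1 bp from the TSS of Ccnl2, so part of that cover belongs to a call centred on another gene. Mrps26 (chr2:130389478-130394431), a protein found only in mitochondrial ribosomes, had 36.5% at 0 min and 100% at each later time. Mrps17 (chr5:130221372-130224750), homologous to bacterial S17, had 52.2% at 0 min and 100% at each later time. Mrpl20, Mrpl22, Mrps17 and Mrps26 are the 4 genes more than 20 points above 0 min at all 5 later times. At 30 min their broad cover was 0% in all 4, as at 0 min.

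In the others of these 10 the difference did not last in the same way. Mrpl55 had 36.9% before OHT, 93.1% at 10 min, 96.0% at 30 min but 14.0% at 4 h, and Mrps6 had 16.9%, 64.9%, 75.0% and 18.3% at the same times. Mrpl27, homologous to a bacterial protein at the peptide-joining centre, had 4.7% at 0 min, 65.4% at 30 min, 94.4% at 2 h and 7.0% at 4 h. Mrps30 had 4.6% before OHT, 75.4% at 20 min, 60.1% at 30 min but 22.3% at 4 h. Mrpl13 had 13.0%, 46.9%, 57.5% and 11.1% at these times, and Mrps15 had 4.3%, 77.1%, 31.1% and 17.1%. At 4 h the last 5 of these stood within 20 points of their value at 0 min, while Mrpl55 was 22.9 points lower.

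Of the 64 genes, 15 had the TSS of another protein-coding gene inside the body or within 1 kb of it, among them Mrpl27 (Eme1), Mrps6 (Slc5a3), Mrpl13 (Mtbp) and Mrpl18 (Tcp1). Of these 15, 3 were more than 20 points higher at 30 min, and of the 49 without such a TSS, 8 were. The mean cover of the 49 was 25.3% before OHT, 35.7% at 30 min and 36.4% at 4 h, against 27.8%, 37.9% and 36.9% for all 64. This split was chosen after seeing the data, and the part of neighbouring genes in the cover was not tested.

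More than 20 points lower at 30 min or 4 h were Mrpl18, Mrpl51 and Mrpl55. Mrpl51, a protein found only in mitochondrial ribosomes, had 100% at 0 min, 97.0% at 10 min, 74.5% at 20 min, 74.9% at 30 min, 65.5% at 2 h and 43.1% at 4 h. Mrpl18 had 35.7% at 0 min, 18.6% at 10 min, 43.0% at 20 min, 12.6% at 30 min, 19.5% at 2 h and 13.8% at 4 h. Mrpl18 thus carried 1 of the 3 strongest Myc peaks of the set at 4 h and lower narrow cover than before OHT.

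Some genes left no room for a difference. Mrpl12, Mrpl17, Mrps2 and Mrpl49 were at 100% in all 6 narrow lists. In the broad lists Mrpl12 had 1.5% before OHT, 44.3% at 20 min and 13.6% at 4 h, while Mrpl17 had 84.3%, 100% and 88.4%. At the other end, Mrps9 (54450 bp) and Mrps28 (121773 bp) stayed at or below 0.5% in all 6 narrow lists. Mrps28 had 1 of the 8 strongest Myc promoter peaks. Mrpl3 stayed at or below 5.6%, and Mrps7 was at 100% except at 30 min (84.8%).

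**Figure D4:**
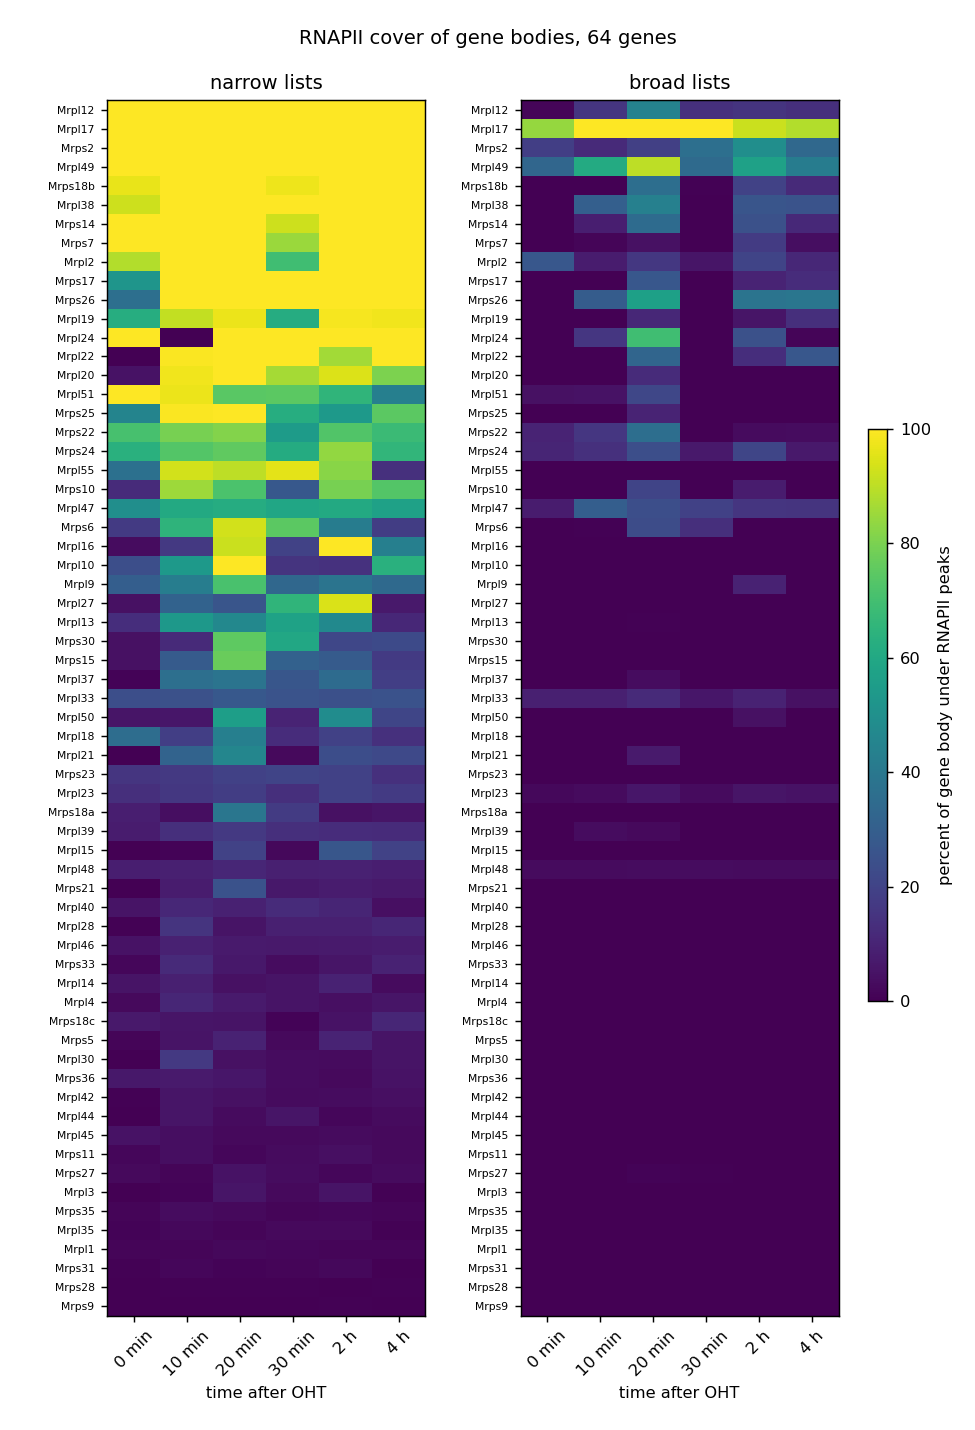
Colour gives the percent of the gene body under RNAPII peaks for the 64 measured genes (rows, ordered by their mean over the narrow lists) at each time after OHT (columns), from the narrow (left) and broad (right) lists. Most rows stay dark or bright throughout, and Mrpl22, Mrpl20, Mrps26 and Mrps17 are lower at 0 min than at all later times in the narrow lists.

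The other gene groups were set beside these values along the body. The 43 measured cytosolic ribosomal protein genes had a mean narrow cover of 95.5% at 0 min and 95.7% at 30 min, near the ceiling. The 63 respiratory chain genes had 30.7% before OHT, 48.2% at 20 min, 31.6% at 30 min, then 36.8% at 4 h, and 6 of them were more than 20 points higher and 6 lower at 30 min. Their means at 20 min and 4 h were thus close to those of the mitochondrial ribosomal protein genes, and that at 30 min was lower. The 16 measured genes for assembly of the mitochondrial ribosome had 10.2% at 0 min and 11.5% at 30 min, and the 13 for translation factors 15.6% and 18.7%. The 8 genes for copying and transcribing mitochondrial DNA had 22.1% and 32.5%, and 3 of the 8 were more than 20 points higher at 30 min. The 4 measured mitochondrial ribosomal proteins under other symbols had 52.4% and 60.4%. The last 2 groups thus had differences in mean close to that of the mitochondrial ribosomal protein genes, over few genes.

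Miz1 was at few of these promoters. In fibroblasts 8 of 76 had a Miz1 promoter peak, against 8.25% of all genes, and in B cells 5 of 76, against 5.48%. Both counts were near the share in all genes. The lists were called at p cutoffs of 1e-02 in fibroblasts and 1e-05 in B cells, so their counts are set side by side only. Mrps15 and Mrps23 had a peak in both cell types, and these were by far the strongest of the set.

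Mrps15, homologous to bacterial S15, had a fold of 157 in fibroblasts, rank 34 of 1833 genes with a promoter peak, and of 86.5 in B cells, rank 51 of 1217. Its pileup, the height of stacked fragments at the summit, was 211 and 306. Mrps23, found only in mitochondrial ribosomes, had 99.8 in fibroblasts (rank 74) and 54.5 in B cells (rank 138), with pileups of 134 and 257. Their summits in the cell types lay 8 bp apart in Mrps15 and 27 bp apart in Mrps23.

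The other fibroblast peaks were weak. Mrpl10 had a fold of 10.4, Mrpl34 of 7.86, Mrpl19 of 7.45, Mrps21 of 6.70, Mrpl41 of 5.96 and Mrpl13 of 4.16, where the median over all genes with a Miz1 promoter peak was 7.45. Their pileups were 8 to 14. In B cells Mrpl45, whose product helps tie the ribosome to the inner membrane, had 18.3, Mrps10 had 8.81 and Mrps28 had 4.72, where the median was 9.85. The palindrome ATCGAT was in none of the 100 bp windows around these summits, and in 1.58% of all genes with a Miz1 promoter peak in fibroblasts and 2.47% in B cells.

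**Figure D5:**
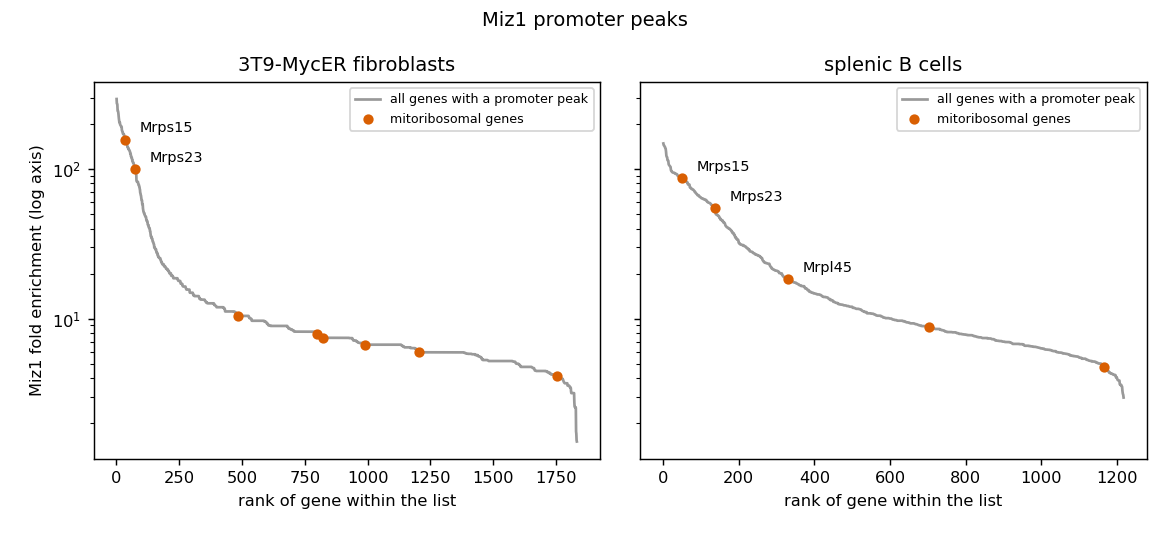
Each curve gives the Miz1 fold enrichment (y axis, log scale) of all genes with a promoter peak in order of rank (x axis), in fibroblasts (left) and B cells (right); orange points are mitochondrial ribosomal protein genes. Mrps15 and Mrps23 lie on the steep left part of both curves, and the remaining fibroblast points lie on the flat part.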

How the data were processed

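The data were 20 peak lists of 14 libraries, each called by the authors on 1 library against a control, per the file headers. The input library was not analysed here. The submitters' processing notes name the aligner BWA (version 0.6.2-r126) and the build mm9. Myc and narrow RNAPII lists came from MACS 1.4.2 and give deposited tag counts, a significance score (−10 times log10 of p) and a fold ratio. Broad RNAPII and Miz1 lists came from MACS 2.0.9 and give deposited −log10 p and q, a fold ratio and, for Miz1, a pileup signal. The p cutoff was 1e-08 for Myc and RNAPII, 1e-02 for fibroblast Miz1 and 1e-05 for B cell Miz1, per the file headers. The narrow RNAPII lists kept 1 tag per position and the broad lists up to 2. The numbers of tags per library limit which weak peaks were called.

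Here, peaks were joined to GENCODE vM1 (build NCBIM37, the same as mm9) by an overlap of at least 1 bp with 1000 bp either side of a TSS, using python 3.11.15, pandas 2.3.3 and pysam 0.24.0. Code was tested on simulated peaks. Peaks on chromosome names outside the reference (12 in the fibroblast and 8 in the B cell Miz1 list) were not used. Sequences were read from the NCBIM37 genome. With 1 library per group there was no test, and no multiple testing.

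The genes, gene lists and motifs were chosen with earlier results of these data known. Named genes were those whose Myc or narrow RNAPII call differed between times, those with a Miz1 peak, the 8 highest and 4 lowest by Myc fold at 4 h, the 10 with the largest difference in cover from 0 to 30 min, those more than 20 points lower at 30 min or 4 h, and Mrpl12, Mrps12, Mrpl3, Mrps7 and Mrps18b. Other genes were named after their values were seen. Alternatives were other windows and overlaps, stronger peaks only, equal numbers of peaks, other motif settings and other definitions of the gene body.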

Additional observations from a re-analysis of the deposited data

How the results depend on the processing

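Each library stands alone, so no value can be checked against replicates. No paired analysis was possible because each group held 1 library. Cover and peak counts depend on depth, which was highest for RNAPII at 20 min, and a missing peak can be a weak one. The counts of Myc and RNAPII promoter peaks stayed within 1.5 times under every alternative run, from 61 (Myc at all 6 times, peaks above the median fold) to 76. The share of all genes with such peaks was not counted under these alternatives. With only peaks above the median fold, Miz1 was at 3 genes in B cells. With CACGTG or CACGCG, 26 genes had a motif at the Myc summit at 0 min and 24 at 4 h, which is 35.1% and 31.6% of those with a peak, where all genes had 37.9% and 37.0%. Divergent promoters numbered 22 within 500 bp and 27 with overlapping heads counted too, the latter chosen after seeing the data. In the broad lists the mean cover was 3.30% before OHT, 3.81% at 30 min and 5.85% at 4 h, and 0 genes at 30 min and 3 at 4 h were more than 20 points higher; the cause was not tested. With the first 2000 bp left out the means were 26.1%, 34.7% and 34.5%, and with genes of at least 5000 bp (49 genes) 16.8%, 27.5% and 27.2%. Without genes that have another TSS in or near the body, also chosen after seeing the data, they were 25.3%, 35.7% and 36.4%. With equal numbers of peaks the 30 min mean was 37.4%, and without Mrps18a to Mrps18c the means at 0 min and 4 h were 27.4% and 36.8%. The narrow mean was higher at 30 min and 4 h than at 0 min in each of these settings, while in the broad lists 0 and 30 min lay close together.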

Other observations

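The median Myc percentile at 4 h was 63.5 in the 26 ranked mitochondrial ribosomal protein genes with an ETS core in the promoter and 67.5 in the 48 without. It was 62.3 in the 8 with the YY1 motif and 67.5 in the 66 without. Of the 27 genes with an ETS core, 9 also had a divergent partner. In Mrpl43, Mrpl52, Mrpl53 and Mrps34, 2 separate ETS cores were found in the promoter. Mrpl46 and Mrps11, the pair that shares a promoter, both had the YY1 motif.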
